A study of Homo sapiens with 14 samples.

Results

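MDA-MB-231 and BT-549 are human breast cancer cell lines that their labels call triple-negative, a class defined by the absence of the estrogen receptor, the progesterone receptor and amplified HER2. Their transcriptomes were compared here in 5 of the 14 poly(A) RNA sequencing libraries of a study on ADAR (an enzyme that edits adenosine to inosine in base-paired RNA) and NOP14 (a protein needed to build the small ribosomal subunit). The 2 MDA-MB-231 libraries came from cells with the PCDH control, the vector arm of the NOP14 experiment, and from cells overexpressing NOP14. The 3 BT-549 libraries came from cells given control siRNA and from cells given ADAR siRNA in 2 libraries, numbered 1 and 2. Sample titles call these libraries repeats, but the labels do not say if the same siRNA was used in both or if the libraries of a line are separate cultures, so p-values measure only the spread between these libraries. ADAR and NOP14, the manipulated genes, were left out of the results. The line and the way its cells were handled (vector or siRNA) cannot be told apart within the 5 libraries. Each call was also read in the PCDH control library over the BT-549 control siRNA library alone. That pair leaves out NOP14 overexpression and ADAR siRNA. Its libraries are among the 5 tested, and it still sets vector against siRNA handling, so it does not separate the line from the handling. Another 3 MDA-MB-231 libraries, 1 with control siRNA and 2 with ADAR siRNA, were kept out of the test because transcripts of replication-dependent histone genes took 0.488 to 0.761% of their counts, against 0.0067% and 0.007% in the vector libraries and 0.0161 to 0.0309% in the BT-549 libraries. Their values are given beside some results as another reading of MDA-MB-231.

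Triple-negative lines fall into groups that keep basal epithelial features and groups that have moved towards a mesenchymal state, with vimentin and ZEB1 in place of E-cadherin, and both lines here are usually placed among the mesenchymal ones. As background, MDA-MB-231 is known for an activating mutation of BRAF and for loss of the CDKN2A region, and BT-549 for loss of RB1 function. Levels below are CPM, read counts scaled to library size with TMM factors, and are given in the order PCDH control and NOP14 for MDA-MB-231, then control siRNA, ADAR siRNA 1 and ADAR siRNA 2 for BT-549. Fold changes are MDA-MB-231 over BT-549.

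The hormone receptor genes fitted the triple-negative labels in both lines, while markers of the mesenchymal and epithelial states were mixed. ESR1, the estrogen receptor, stood at 0.178 and 0.284 CPM in MDA-MB-231 and at 0, 0 and 0.0423 CPM in BT-549, and PGR, the progesterone receptor, summed to 3 counts in MDA-MB-231 and 0 in BT-549. ERBB2, which encodes HER2, was present at 91.3 and 91.1 CPM in MDA-MB-231 and at 92.7, 113 and 123 CPM in BT-549. Vimentin (VIM), ZEB1, the receptor kinase AXL and the caveolin CAV1 were abundant in both, with VIM at 1090 and 1044 CPM in MDA-MB-231 and at 1488, 1200 and 1877 CPM in BT-549. Of the other mesenchymal markers checked, fibronectin (FN1) was far lower in BT-549 than in MDA-MB-231. N-cadherin (CDH2) was under 1 CPM in every library of both lines. E-cadherin (CDH1), the epithelial splicing factor ESRP1 and the epithelial transcription factor GRHL2 were at or under 0.446 CPM in every library of both lines. Other epithelial markers were expressed in MDA-MB-231. The keratins KRT8 and KRT19 stood there at 591 and 601 CPM and at 274 and 284 CPM, and the tight junction gene CLDN4 at 76.1 and 85.4 CPM. All were at 3.98 CPM or less in BT-549. EPCAM, KRT18 and CLDN7 are given below. Of the markers of other cells, CD3E and MS4A1 had 0 counts in all 5 libraries, PTPRC was at 0.604 CPM or less, TRAC, a T-cell receptor chain gene, stood at 6.22 and 6.81 CPM in MDA-MB-231 against no count in BT-549, and PECAM1, an endothelial adhesion molecule, stood at 10.8 and 11.4 CPM in MDA-MB-231 against 0.0469, 0 and 0 CPM in BT-549. Of the 29 listed endothelial, fibroblast and immune genes, 11 could be tested, and 8 of those were higher and 1 lower in MDA-MB-231. Of the 11, 7 reached 1 CPM in MDA-MB-231 alone and 1 in BT-549 alone. Those genes entered the test through that line, so the count is a description. Of the 2 that both lines expressed, none was higher or lower. Together the listed genes came to 51 and 52.7 CPM in MDA-MB-231 and to 7.42 to 18.8 CPM in BT-549, and their part in the results was not tested.

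Many genes differed between the lines. Of 17476 genes tested, 5605 were higher and 5266 lower in MDA-MB-231 at an adjusted p under 0.05 (edgeR quasi-likelihood test, Benjamini-Hochberg), which is 62.2% of all genes tested. Of these calls, 3707 higher (21.2% of genes tested) and 3046 lower (17.4%) also differed at least 2-fold in the same direction in the PCDH control over the BT-549 control siRNA library, and below a gene is said to be higher or lower only if it met both criteria. Without the PCDH control library 7239 of 18548 genes tested were called (3197 lower), and without the NOP14 library 7263 of 18575 (3145 lower). With terms for ADAR siRNA and NOP14, 4527 of 17476 were called. The median gene differed by 0.0805 on the log2 scale between the 2 MDA-MB-231 libraries and by 0.186 to 0.277 between BT-549 libraries, against 0.740 to 0.777 between a library of each line, over 15022 genes. Many genes were tested because 1 line had them, and such a gene had to differ. So counts are also given for the 11827 genes that averaged at least 1 CPM in both lines, of which 13.4% were higher and 12% lower in MDA-MB-231.

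**Figure D1:**
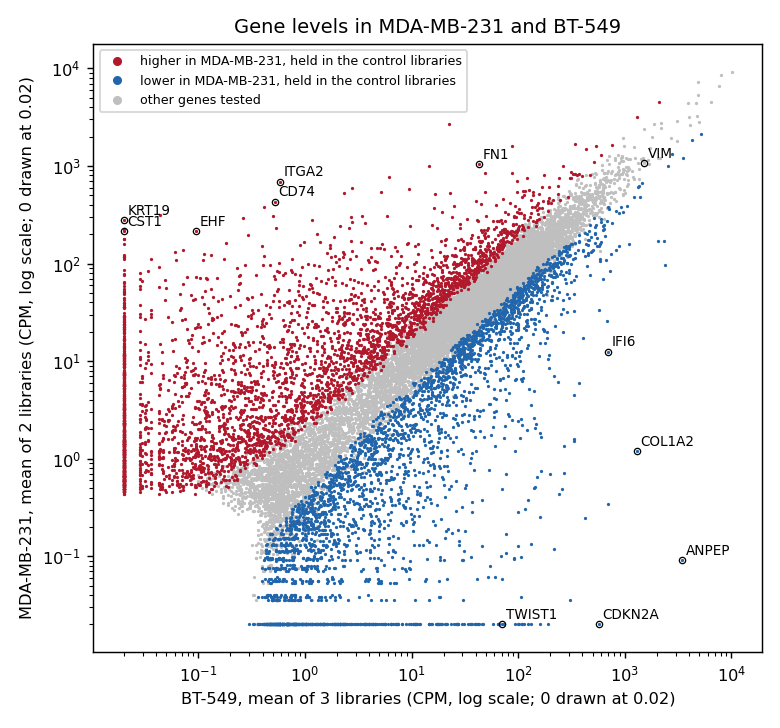
Mean level of each gene tested in MDA-MB-231 (vertical axis, 2 libraries) and BT-549 (horizontal axis, 3 libraries), in CPM on log scales with 0 drawn at 0.02. Genes higher (3707, red) and lower (3046, blue) in MDA-MB-231 include columns of points at 0 in the other line, such as CST1 and TWIST1, while VIM lies near the diagonal.

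A set of genes was present in 1 line and at or near 0 in the other. At 10 CPM or more in every library of 1 line and 0.1 CPM or less in every library of the other, 123 genes (0.704% of genes tested) were detected in MDA-MB-231 and 66 (0.378%) in BT-549. In bulk libraries, fewer expressing cells and less RNA per cell cannot be told apart. The highest of the 123 were the calcium-binding protein S100A16, at 314 and 313 CPM in MDA-MB-231 against 0.0469, 0 and 0.0846 CPM in BT-549, and the simple epithelial keratin KRT19, at 274 and 284 CPM against 0.0469, 0 and 0 CPM. Next came ANKRD1, a YAP target, and the secreted cysteine protease inhibitor CST1, which had 11261 counts in MDA-MB-231 and none in BT-549 and was at least 4521-fold higher. PTPRM, a receptor phosphatase that binds itself across cell contacts (at least 3819-fold), the lipase inhibitor G0S2 (at least 3756-fold), the actin-binding protein LIMCH1 (at least 3381-fold), the acute-phase protein SAA1 (at least 2534-fold) and the pentraxin PTX3 (at least 2468-fold) were likewise without a count in BT-549. These bounds set BT-549 at 3 counts over its libraries. With the MDA-MB-231 siRNA libraries in place of the vector libraries, SAA1 fell most of these, from a fitted log2 fold change of 14.44 to 9.07. G0S2 and LIMCH1 rose, from 15.01 to 15.58 and from 14.86 to 15.42. CST1 and SAA1 have near-identical neighbours (CST4 and SAA2 showed the same pattern), so how reads were shared among the copies is uncertain. The adjusted p-values of S100A16, KRT19, ANKRD1, CST1, PTPRM, G0S2, LIMCH1, SAA1 and PTX3 were at most 2.76e-06 (edgeR). These p-values add no support, since the genes were picked on the same values.

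In the other direction the most abundant were CDKN2A, FBLN2, ADAMTS2 and COL3A1. CDKN2A, which encodes the cell cycle inhibitors p16 and p14ARF, had 0.0355 and 0 CPM in MDA-MB-231 against 509, 596 and 601 CPM in BT-549, that is 1 count against 36158 (a ratio of 30020, exact 95% counting interval 5388 to 1186000). FBLN2, a fibulin of the extracellular matrix, had 0.0711 and 0 CPM against 282, 331 and 314 CPM. The groups could not overlap for these genes, given the rule that picked them, and each MDA-MB-231 value rests on at most 2 counts. MEG3, a maternally expressed long noncoding RNA, was at 0 in both MDA-MB-231 libraries and at 83, 112 and 180 CPM in BT-549 (at least 2246-fold lower). UCHL1, a neuronal ubiquitin hydrolase, was at 0 against 118, 108 and 102 CPM (at least 1921-fold lower), and the type II cadherin CDH10 at 0 against 73.7, 75.8 and 178 CPM (at least 1988-fold lower). ANPEP, the cell surface aminopeptidase N, was far more abundant in BT-549 than these, with 0.142 and 0.0406 CPM in MDA-MB-231 against 3042, 3224 and 4040 CPM in BT-549. Of the 123 genes, 80 also reached 10 CPM in all 3 MDA-MB-231 siRNA libraries and none was at or under 0.1 CPM in all of them. Of the 66, 46 were at or under 0.1 CPM in all 3, and none reached 10 CPM in all 3.

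**Figure D2:**
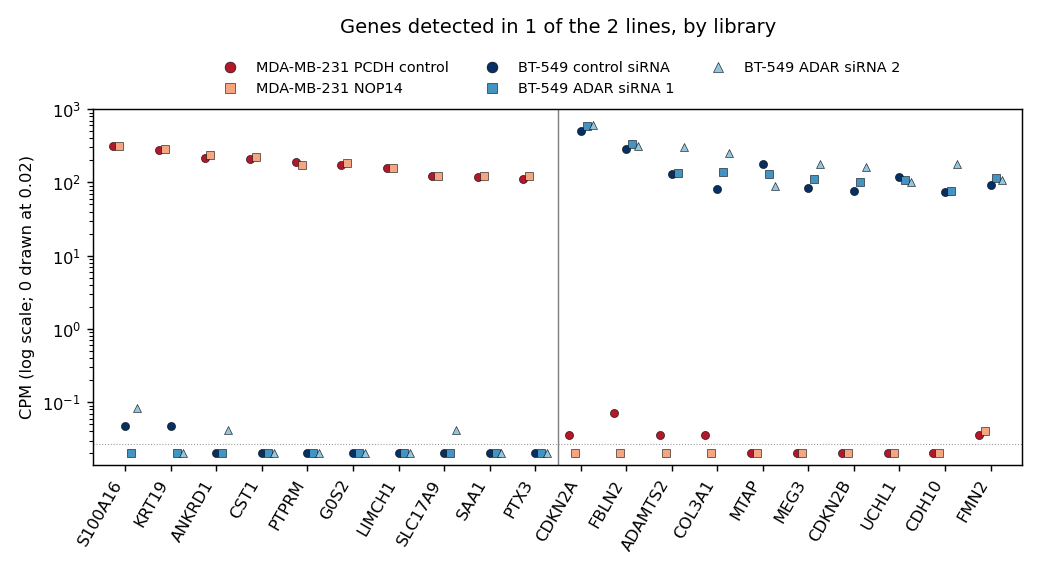
Level of the 10 most abundant genes detected in MDA-MB-231 alone (left of the line) and in BT-549 alone (right), in CPM on a log scale with 0 drawn at 0.02; each symbol is 1 library. The genes on the left lie above 100 CPM in both MDA-MB-231 libraries and at or below 0.0846 CPM in BT-549; those on the right lie above 70 CPM in BT-549 and at or below 0.0711 CPM in MDA-MB-231.

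The set of 123 was not a list of genes that BT-549 alone lacks. In the lung adenocarcinoma line NCI-H1395, 20 of the 123 reached 10 CPM in all 3 libraries, as did 34 in the gastric line AGS, and 29 stayed under 1 CPM in both. Of the 66 detected in BT-549, 22 did so in NCI-H1395 and 8 in AGS, and 23 stayed under 1 CPM in both. Over all 3707 genes higher in MDA-MB-231, both other lines were nearer to BT-549 for 1217 genes (32.8%) and nearer to MDA-MB-231 for 1006 (27.1%). Over the 3046 lower genes, both were nearer to BT-549 for 789 (25.9%) and nearer to MDA-MB-231 for 1170 (38.4%).

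Epithelial genes were higher in MDA-MB-231 in spite of the missing E-cadherin. Of 31 tested of 40 listed, 24 were higher and 4 lower, with a median log2 fold change of 3.19 against 0.01 over all genes. Among the 15 that both lines expressed, 10 were higher and 4 lower, with a median of 2.02 against -0.01 over all such genes. EPCAM, an epithelial adhesion molecule, had 10.3 and 9.98 CPM in MDA-MB-231 and no count in BT-549 (at least 215-fold higher), and the cornified envelope protein EVPL had 61.8 and 68.2 CPM against none (at least 1374-fold higher). EHF, an epithelial ETS factor, stood at 212 and 220 CPM in MDA-MB-231 and at 0, 0.161 and 0.127 CPM in BT-549 (log2 fold change 11.08 ± 0.30, SE, edgeR adjusted p = 8.06e-07). These genes were at or near 0 in BT-549, so their lack of overlap between the lines is a description only.

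Keratins of simple epithelia followed the same order, but to unequal degrees. On a scale per transcript length (TPM, mean of the libraries of a line), KRT8, KRT18 and KRT19 stood at 335, 343 and 461 TPM in MDA-MB-231 and at 1.52, 92.5 and 0.0253 TPM in BT-549. KRT18, the partner of KRT8 in the filament, had the highest level of the 3 in BT-549, and it differed by a log2 fold change of 1.87 ± 0.14. The tight junction genes split. CLDN4 was at 76.1 and 85.4 CPM in MDA-MB-231 against 0.610, 0.643 and 0.677 CPM in BT-549, and CLDN7 at 20.8 and 18.5 CPM against 0, 0.161 and 0.254 CPM. CLDN1 went the other way, at 3.84 and 5.07 CPM in MDA-MB-231 against 283, 342 and 386 CPM in BT-549 (log2 fold change -6.24 ± 0.22, edgeR adjusted p = 1.79e-06). The desmosomal plaque protein DSP was 6.24-fold higher in MDA-MB-231.

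Luminal and basal breast markers did not sort the lines into those classes. Of 13 luminal genes tested, 8 were higher and 1 lower in MDA-MB-231, but 6 of the 13 reached 1 CPM in MDA-MB-231 alone, and of the 7 that both lines expressed 2 were higher and 1 lower, with a median log2 fold change of -0.26. Of 10 basal genes, 7 were higher and 1 lower, and of the 7 in both lines 5 were higher and none lower. The luminal genes AGR2, an endoplasmic reticulum disulfide isomerase (22.5 and 22.4 CPM in MDA-MB-231, no count in BT-549), and SPDEF, an ETS factor of secretory cells (57.9 and 54.8 CPM against 0, 0.107 and 0.0423 CPM), were nearly confined to MDA-MB-231 among these 5 libraries. GATA3 was present in both, at 12.3 and 11.9 CPM against 24.5, 32 and 36.6 CPM. Among basal genes, the laminin chain LAMB3, the integrins ITGA6 and ITGB4, which bind laminin in hemidesmosomes, and the checkpoint adaptor SFN were higher in MDA-MB-231. P-cadherin, CDH3, was lower, at 0.320 and 0.689 CPM in MDA-MB-231 against 108, 151 and 162 CPM in BT-549. The basal keratins KRT5 and KRT14 were under 1 CPM in every library.

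The factors that drive epithelial-mesenchymal transition differed one by one. ZEB1 stood at 85.1 and 85.5 CPM in MDA-MB-231 and at 97.5, 87.3 and 107 CPM in BT-549, a log2 fold change of -0.19 ± 0.12 that did not pass (edgeR adjusted p = 0.192). TWIST1 had no count in either MDA-MB-231 library against 77.5, 87.3 and 47.8 CPM in BT-549 (at least 1220-fold lower), and TWIST2 was at 0 against 4.41, 5.31 and 5.12 CPM. Neither had a count in the 3 MDA-MB-231 siRNA libraries. SNAI2 (SLUG) ran the other way, at 36.5 and 36.5 CPM in MDA-MB-231 against 0.563, 0.697 and 1.4 CPM in BT-549 (log2 fold change 5.33 ± 0.31). KLF8 was found in MDA-MB-231 alone, at 3.06 and 3.85 CPM against no count. Over the 12 tested, 3 were higher and 5 lower, and of the 7 in both lines none was higher and 3 were lower.

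Extracellular matrix genes differed in both directions. Of 24 collagen genes tested, 15 were higher and 6 lower in MDA-MB-231, and the lower ones included COL1A2, COL3A1 and COL5A2, chains of the fibrils of interstitial matrix. Of the 18 that both lines expressed, 11 were higher and 5 lower. COL1A2 had 0.96 and 1.42 CPM in MDA-MB-231 against 700, 1017 and 2172 CPM in BT-549 (log2 fold change -10.10 ± 0.71, edgeR adjusted p = 2.81e-05). COL3A1 had 0.0355 and 0 CPM against 82.4, 140 and 256 CPM, and COL5A2 had 1.81 and 1.5 CPM against 78.9, 131 and 284 CPM. These 3 were highest in the BT-549 ADAR siRNA 2 library, in which COL1A1, the partner chain of COL1A2, stood at 116 CPM against 6.95 and 10.2 CPM in the other BT-549 libraries and 17.3 and 17.9 CPM in MDA-MB-231. COL1A1 did not pass the test (edgeR adjusted p = 0.327).

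Several basement membrane, network and transmembrane chains were higher instead, but the classes were not uniform. COL4A2 stood at 206 and 201 CPM in MDA-MB-231 against 1.5, 1.13 and 1.23 CPM in BT-549 (log2 fold change 7.30 ± 0.14), and COL4A1, its partner, at 79.9 and 71.3 CPM against 0.751, 0.429 and 0.677 CPM. COL7A1, of anchoring fibrils, COL8A1, of hexagonal networks, and COL13A1, a transmembrane collagen, were 94.3-, 149- and 117-fold higher. COL4A5 and COL4A6, other basement membrane chains, were lower, with log2 fold changes of -2.59 and -2.64, and COL5A1, a fibrillar chain, was higher at 1.51. Fibronectin (FN1) had 1117 and 983 CPM in MDA-MB-231 against 21, 33 and 75.7 CPM in BT-549 and 275 to 286 CPM in the MDA-MB-231 siRNA libraries. Some collagen-binding matrix proteins had the direction of COL1A2. SPARC had 1.24 and 1.83 CPM in MDA-MB-231 against 228, 374 and 395 CPM in BT-549, and periostin (POSTN) had no count against 4.46, 17.4 and 31.3 CPM. ADAMTS2, the protease that trims fibrillar procollagens, had 1 count in MDA-MB-231 against 131, 133 and 304 CPM in BT-549. Over the 34 matrix glycoproteins and proteoglycans tested, 14 were higher and 8 lower, and of the 21 in both lines 7 were higher and 3 lower.

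Receptors for these proteins differed too. ITGA2 and ITGA1, integrin chains that bind collagen, lie close together on chromosome 5 and were both higher. ITGA2 stood at 706 and 670 CPM in MDA-MB-231 against 0.376, 0.75 and 0.635 CPM in BT-549 (log2 fold change 10.19 ± 0.20, edgeR adjusted p = 3.28e-07), and ITGA1 at 69.2 and 70.6 CPM against 0.282, 0.643 and 0.635 CPM. DDR2, a receptor kinase for fibrillar collagen, was at 2.84 and 2.39 CPM in MDA-MB-231 against 132, 126 and 162 CPM in BT-549. Of 17 integrin genes tested, 8 were higher and 2 lower, and of the 11 in both lines 5 were higher and none lower. Of 7 classical cadherins, 4 were higher, among them CDH11 at 264 and 258 CPM against 2.72, 3.91 and 4.44 CPM, and CDH10 and CDH3 were lower. Only 2 of the 7 averaged at least 1 CPM in both lines, 1 of them higher and none lower, so the count is a description. N-cadherin (CDH2) was at 0.746 and 0.973 CPM in MDA-MB-231 and at 0, 0.0536 and 0.0846 CPM in BT-549, so that neither mesenchymal line carried much of it.

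Matrix proteases and the clotting system divided as well. Among 36 metalloproteases and inhibitors, 13 were higher and 9 lower, and of the 20 in both lines 5 were higher and 3 lower. MMP14, the membrane-bound collagenase, had 839 and 843 CPM in MDA-MB-231 against 44.1, 25.3 and 77.9 CPM in BT-549, whereas MMP2, the gelatinase that MMP14 activates, had 0.924 and 0.892 CPM against 35.2, 55.1 and 15.6 CPM. TIMP3, an inhibitor bound to the matrix, had 1010 and 985 CPM against 10.9, 14.5 and 18.2 CPM. Of 17 plasminogen and coagulation genes, 9 were higher and 2 lower, and of the 13 in both lines 5 were higher and 2 lower. Tissue factor (F3), which starts clotting, stood at 305 and 306 CPM in MDA-MB-231 against 0.188, 0.161 and 1.14 CPM in BT-549 (log2 fold change 9.16 ± 0.46, edgeR adjusted p = 5.97e-06). Thrombomodulin (THBD), which turns thrombin towards anticoagulation, stood at 112 and 119 CPM against 0, 0.0536 and 0 CPM. Tissue plasminogen activator (PLAT) was 219-fold higher in the same cells. All 4 protease-activated receptor genes, F2R, F2RL1, F2RL2 and F2RL3, were higher, whereas SERPINE2, a protease inhibitor, was 9.81-fold lower.

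**Figure D3:**
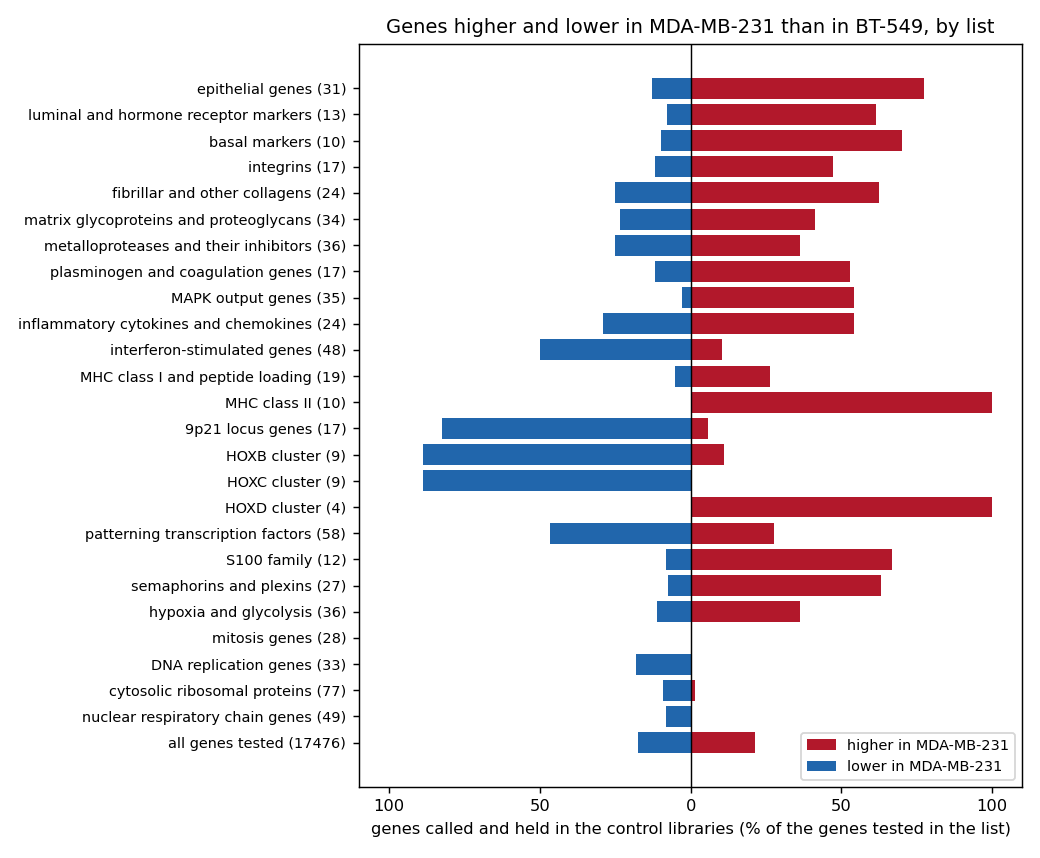
Share of the tested genes of each list (number tested in parentheses) that were higher (red, to the right) or lower (blue, to the left) in MDA-MB-231 than in BT-549; the bottom row is all genes tested, at 21.2% and 17.4%. All 10 MHC class II genes tested were higher, 24 of 48 interferon-stimulated genes were lower, and no mitosis gene was in either class.

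Genes that the MAPK pathway induces were mostly higher in MDA-MB-231. Of 35 tested, 19 were higher and 1 lower, with a median log2 fold change of 1.49, and of the 31 that both lines expressed, 16 were higher and 1 lower. The EGF receptor ligands led the list. EREG (115 and 108 CPM) and TGFA (83.2 and 72.9 CPM) had no count in BT-549, at least 2369- and 1661-fold higher. AREG had 124 and 123 CPM in MDA-MB-231 against 0.235, 0.161 and 0 CPM in BT-549. Their receptor, EGFR, was at 395 and 381 CPM in MDA-MB-231 and at 329, 393 and 196 CPM in BT-549, a log2 fold change of 0.34 ± 0.26 that did not pass (edgeR adjusted p = 0.277). The ERK phosphatases DUSP6 (294 and 284 CPM against 33.3, 34.9 and 32.2 CPM) and DUSP4 (836 and 863 CPM against 58.4, 105 and 98.3 CPM) and the ETS factor ETV4 (81.6 and 78 CPM against 6.43, 9.33 and 5.5 CPM) were higher. Other textbook outputs did not pass, with SPRY4 at -0.14 ± 0.10 and ETV5 at 0.15 ± 0.12 on the log2 scale (edgeR adjusted p = 0.254 and 0.305).

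Among other receptor kinases, FGFR2 had no count in MDA-MB-231 against 26.9, 32.2 and 34.6 CPM in BT-549 (at least 550-fold lower), while KDR, a VEGF receptor, had 4.73 and 6.81 CPM against no count. MET was lower, at 241 and 246 CPM against 649, 541 and 673 CPM, and FGFR1 did not pass (edgeR adjusted p = 0.958), at 163 and 160 CPM against 146, 164 and 172 CPM. Over the 31 receptor kinases tested, 12 were higher and 7 lower, and of the 17 in both lines 3 were higher and 2 lower.

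Genes that hold cells in G1 differed in both directions. CDKN2A and its neighbour CDKN2B, which encodes p15, were at 0.0355 CPM or less in MDA-MB-231, and CDKN2B stood at 76.2, 100 and 164 CPM in BT-549. RB1, the target of the kinases that p16 and p15 inhibit, was at 111 and 108 CPM in MDA-MB-231 against 30.1, 34.6 and 31.9 CPM in BT-549 (log2 fold change 1.77 ± 0.10, edgeR adjusted p = 1.27e-05), lower in BT-549 but present. Cyclin D1 (CCND1) was higher in MDA-MB-231, at 756 and 746 CPM against 139, 152 and 72.4 CPM, and cyclin E1 (CCNE1) lower, at 11.5 and 12.3 CPM against 44.6, 36.6 and 29.5 CPM. CDKN2C, which encodes p18, was lower at 70.6 and 69.6 CPM against 196, 243 and 383 CPM. CDKN2D, which encodes p19, was higher at 56.9 and 62.7 CPM against 24.7, 24.9 and 27.8 CPM, but it stood at 11.1 to 15 CPM in the MDA-MB-231 siRNA libraries, so its direction was that of the vector libraries only. Of 29 RB, E2F and cyclin genes tested, 7 were higher and 5 lower, and of 26 PI3-kinase pathway genes 6 were higher and 4 lower.

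The empty stretch around CDKN2A was long. Along chromosome 9, 18 listed genes from HACD4 to ELAVL2 (chr9:20999509-23826337, hg38) held 1 count in the 2 MDA-MB-231 vector libraries together, 0 in the 3 MDA-MB-231 siRNA libraries and 64646 in the BT-549 libraries, where 12 of them averaged at least 1 CPM. MTAP, the methylthioadenosine phosphorylase next to CDKN2A, had 0 CPM in both MDA-MB-231 libraries against 177, 132 and 89.3 CPM in BT-549 (at least 2309-fold lower). KLHL9, a ubiquitin ligase adaptor, had 0 against 90.6, 93.7 and 99.2 CPM (at least 1667-fold lower). FOCAD, at the upstream edge, kept 5.33 and 4.75 CPM against 77.8, 74.5 and 49.2 CPM, and its neighbour MLLT3 was the exception, at 18.1 and 17.6 CPM in MDA-MB-231 against 0.798, 0.965 and 0.72 CPM in BT-549. BNC2, a zinc finger protein, and CNTLN, a centrosomal protein, formed another gap of neighbouring genes nearer the telomere, with 1 and 0 counts in MDA-MB-231 against 86.8, 102 and 119 CPM for BNC2 and 59, 59.6 and 55.7 CPM for CNTLN. Between the gaps RPS6, a ribosomal protein, was at 591 and 624 CPM in MDA-MB-231 against 1433, 1343 and 1244 CPM in BT-549. Genes beyond the stretch, such as IFT74 at 19.4 and 18.9 CPM against 37, 35.7 and 32.3 CPM, were again detected in both lines, but LINGO2, farther on, had 0 CPM in both MDA-MB-231 libraries against 1.46, 2.63 and 2.71 CPM in BT-549. CDKN2A itself was at 77.6 to 103 CPM in NCI-H1395 and at 0 in AGS, which had MTAP at 30.8 to 50.1 CPM.

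**Figure D4:**
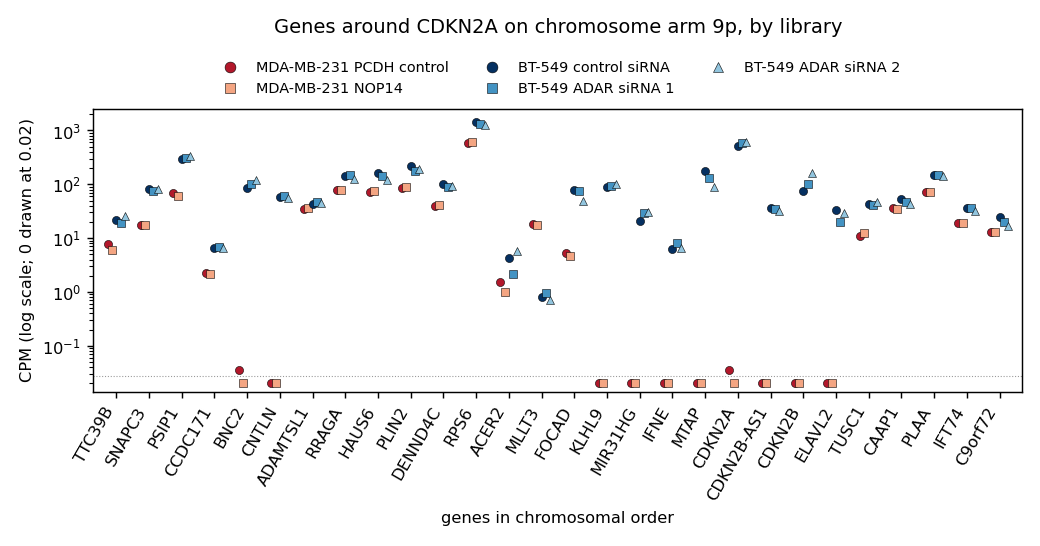
Level of the genes around CDKN2A on chromosome arm 9p in chromosomal order, in CPM on a log scale with 0 drawn at 0.02, for genes that reach 5 CPM in at least 1 library; each symbol is 1 library. The MDA-MB-231 symbols drop to 0 or 1 count at BNC2 and CNTLN and again from KLHL9 to ELAVL2, while BT-549 has CDKN2A at 509 to 601 CPM.

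On some chromosome arms, neighbouring genes also differed together. On 41 arms with at least 30 genes expressed in both lines, the median log2 fold change was above 0 in all 6 library pairs on 20 arms and below 0 in all 6 on 18. The pairs reuse the same libraries and are not independent, and these counts include arms with medians near 0. The arm 4p stood at 1.61 over 122 genes, of which 96.7% were higher on average in MDA-MB-231, with 1.57 to 1.75 over the library pairs. The next were 11p at 0.81, 6p at 0.63 and 4q at 0.53. At the other end, 9p stood at -0.99 over 121 genes, of which 9.09% were higher, with -1.02 to -0.95 over the library pairs, followed by 8p at -0.77 and 6q at -0.58. With the MDA-MB-231 siRNA libraries, 4p stood at 1.62, 9p at -1.15 and 8p at -0.76, whereas 6p moved to 0.33. Several arms near 0 changed sign, 9q among them, from 0.07 to -0.31. The highest run of 100 neighbouring genes lay on chromosome 4 from ZNF595 to RFC1, with a median of 1.72. Copy number was not measured in these libraries.

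**Figure D5:**
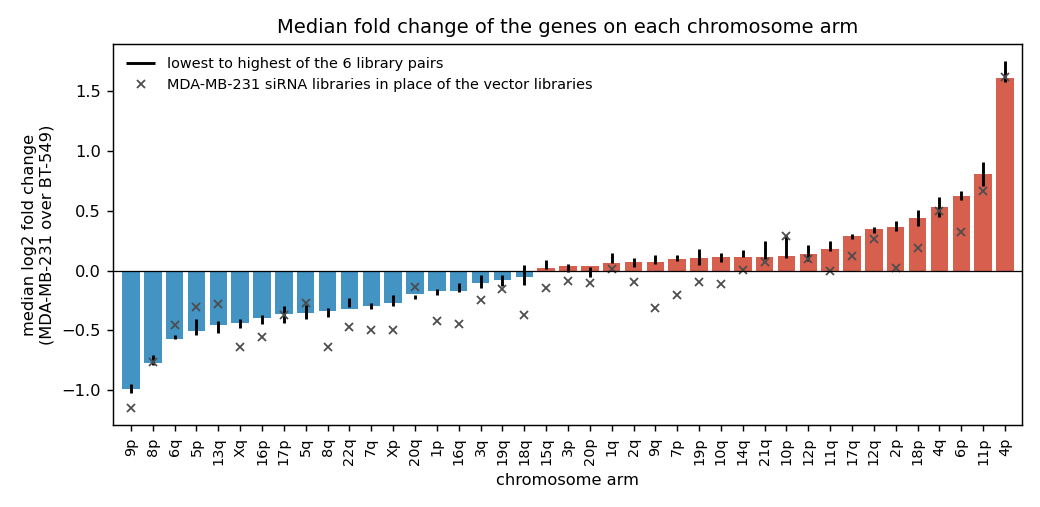
Median log2 fold change of the genes expressed in both lines on each of 41 chromosome arms (bars), ordered by value, with the lowest and highest of the 6 library pairs (black lines) and the median with MDA-MB-231 siRNA libraries (crosses). Arm 4p at 1.61 and arm 9p at -0.99 are the extremes.

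MHC class II, which presents peptides to CD4+ T cells and is normally made by antigen-presenting cells or after interferon-gamma, was expressed in MDA-MB-231. CIITA, the coactivator that switches these genes on, stood at 52.1 and 51.1 CPM in MDA-MB-231 against 6.48, 4.82 and 4.87 CPM in BT-549 (log2 fold change 3.26 ± 0.17, edgeR adjusted p = 6.59e-06). CD74, the invariant chain, stood at 435 and 429 CPM against 0.469, 0.429 and 0.677 CPM (log2 fold change 9.65 ± 0.17, edgeR adjusted p = 3.28e-07). HLA-DRA, the chain shared by the HLA-DR molecules, had 41 and 41.2 CPM against 0.188, 0.268 and 0 CPM. HLA-DPB1 and HLA-DRB1 had 16.4 and 17.5 CPM and 11.2 and 11.9 CPM in MDA-MB-231 and no count in BT-549 (at least 358- and 244-fold higher). The peptide exchange factor HLA-DMA had 18.3 and 15 CPM against 0.188, 0.0536 and 0 CPM. HLA-DQA1 had 0 counts in all 5 libraries, and HLA-DQB1 had 0 in MDA-MB-231 and 8 in BT-549, so the HLA-DQ pair was not part of the pattern. All 10 genes tested of 12 were higher, but 9 of them reached 1 CPM in MDA-MB-231 alone, so they entered the test through that line and the count is a description. CD74 stood at 281 to 562 CPM and HLA-DRA at 19.4 to 38.9 CPM in the MDA-MB-231 siRNA libraries, and neither exceeded 3.68 CPM in NCI-H1395 or AGS. HLA genes are polymorphic and alike, so counts of single loci are uncertain.

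The promoters of these genes are shown because class II genes share an upstream module, the X and Y boxes, that CIITA acts through. RefSeq promoters (GRCh38.p14, 250 bases before to 50 bases after the start, printed 5′ to 3′ on the strand of the gene) were searched on both strands for the Y box core ATTGG and for the X box core ACNGATG, letters chosen after the data were seen, and matches are in capitals. HLA-DRB1 (chr6:32589799-32590098, minus strand) and HLA-DMA (chr6:32953048-32953347, minus strand) have the X core upstream of a Y core on 1 strand within 60 bases, and HLA-DPB1 (chr6:33075740-33076039, plus strand) has Y cores and no X core by these letters.
HLA-DRB1: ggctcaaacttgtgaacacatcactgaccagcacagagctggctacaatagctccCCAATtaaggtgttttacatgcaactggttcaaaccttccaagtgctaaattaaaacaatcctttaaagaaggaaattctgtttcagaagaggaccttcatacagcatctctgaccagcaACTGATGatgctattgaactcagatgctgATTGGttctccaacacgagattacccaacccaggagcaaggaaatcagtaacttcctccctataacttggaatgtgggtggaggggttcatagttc
HLA-DMA: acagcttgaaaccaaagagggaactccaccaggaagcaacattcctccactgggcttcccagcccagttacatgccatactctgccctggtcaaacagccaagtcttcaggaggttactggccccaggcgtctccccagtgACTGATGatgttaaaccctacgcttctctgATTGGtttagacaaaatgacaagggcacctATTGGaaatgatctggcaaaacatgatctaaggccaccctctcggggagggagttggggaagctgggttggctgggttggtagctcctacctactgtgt
HLA-DPB1: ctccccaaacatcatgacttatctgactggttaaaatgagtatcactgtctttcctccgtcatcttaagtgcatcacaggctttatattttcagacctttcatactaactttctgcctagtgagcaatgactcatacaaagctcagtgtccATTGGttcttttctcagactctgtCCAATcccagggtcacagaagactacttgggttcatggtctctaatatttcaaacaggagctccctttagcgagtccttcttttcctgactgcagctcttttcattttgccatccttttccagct
Of the 11 promoters of these genes in the table, 4 have the X core upstream of the Y core, the others being HLA-DRB5, next to HLA-DRB1 and at least 94-fold higher, and HLA-DQB1, which neither line expressed beyond 8 counts. The promoters of CD74, HLA-DMB, HLA-DPA1 (which has 2), HLA-DQA1 and HLA-DOA do not have it, like that of HLA-DPB1. Over all 35116 promoters of the same length, 34.6% hold the Y core, 7.65% the X core and 0.359% the X core upstream of a Y core, and a match to these letters is a description of the window only. HLA-DRA has no entry in the promoter table.

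Class I differed by locus. HLA-B had 256 and 249 CPM in MDA-MB-231 against 37, 26.5 and 22.5 CPM in BT-549 (log2 fold change 3.14 ± 0.20), and HLA-C had 34.1 and 33.8 CPM against 271, 280 and 242 CPM (-2.96 ± 0.12). B2M, the light chain of class I, did not pass (edgeR adjusted p = 0.134). Of 19 class I and peptide-loading genes, 5 were higher and 1 lower.

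Interferon-stimulated genes, which cells switch on after sensing viral or self RNA, were lower in MDA-MB-231 on balance. All 48 listed were tested, and 24 were lower and 5 higher, with a median log2 fold change of -0.98. Of the 45 that both lines expressed, 4 were higher and 22 lower. IFI6, which limits apoptosis and flavivirus replication, stood at 12.3 and 12.6 CPM in MDA-MB-231 against 790, 699 and 592 CPM in BT-549 (log2 fold change -5.80 ± 0.18, edgeR adjusted p = 1.09e-06). OAS3, a synthetase that activates RNase L, stood at 85.2 and 84.2 CPM against 847, 852 and 499 CPM, and MX1, a GTPase that blocks viral ribonucleoproteins, at 22 and 20.8 CPM against 200, 195 and 116 CPM. ADAR siRNA was part of the BT-549 group, and its part in these levels was not tested. The exceptions included IFITM2, which blocks virus entry, at 35.1 and 37.3 CPM in MDA-MB-231 against 0.0469, 0 and 0 CPM, and the tether BST2, at 174 and 182 CPM against 25.4, 22.2 and 15.9 CPM. IFITM1, from the same cluster as IFITM2, did not pass (edgeR adjusted p = 0.377), and reads of these similar genes could have been shared.

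Secreted cytokines differed in both directions. Of 24 tested, 13 were higher and 7 lower, but 9 reached 1 CPM in MDA-MB-231 alone, and of the 11 that both lines expressed 3 were higher and 4 lower, with a median log2 fold change of -0.65. IL11, a gp130 cytokine, had 43.4 and 54.7 CPM in MDA-MB-231 and no count in BT-549 (at least 1031-fold higher), and CSF2, which encodes GM-CSF, had 25.4 and 27.4 CPM against 0, 0 and 0.212 CPM. IL6 had 41 and 40.4 CPM against 7.93, 7.29 and 3.43 CPM. The neutrophil attractants CXCL5 and CXCL6 had no count in MDA-MB-231 against 57.7, 45.1 and 91.6 CPM and 24, 16.2 and 38.6 CPM in BT-549, and CXCL1 had 30 and 36.2 CPM against 650, 487 and 597 CPM. CXCL8, from the same cluster on chromosome 4, was at 84.6 and 91 CPM against 85.9, 33.2 and 79.1 CPM and did not pass (edgeR adjusted p = 0.34). Cyclooxygenase 2 (PTGS2) was 84-fold higher in MDA-MB-231, whereas the mitochondrial dismutase SOD2 was 5.93-fold lower.

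HOX genes, which carry positional identity, were mostly detected in 1 line only. Of the genes tested, 7 of 9 HOXC, 8 of 9 HOXB and all 4 HOXD genes reached 1 CPM in 1 line alone, so they entered the test through that line and their counts are a description. All 9 HOXC cluster genes tested were called lower in MDA-MB-231, and 8 of them met both criteria, with HOXC10 at 0.0355 and 0 CPM in MDA-MB-231 against 32.5, 35.4 and 21.7 CPM in BT-549. Of 9 HOXB genes, 8 were lower, with HOXB2 at 0 and 0.203 CPM against 67.8, 71 and 69.4 CPM. HOXB9 was the exception, at 22.7 and 22.7 CPM in MDA-MB-231 against 0.329, 0.214 and 0.169 CPM in BT-549. The HOXD cluster ran the other way, with HOXD1, HOXD3 and HOXD4 at 1.58 to 5.31 CPM and the antisense transcript HAGLR at 22.5 and 21 CPM in MDA-MB-231 and no count for any of them in BT-549. HOXD8, HOXD10, HOXD11 and HOXD13 summed to at most 5 counts in each line. Of 58 patterning factors outside the HOX clusters, 16 were higher and 27 lower, and of the 27 in both lines 6 were higher and 8 lower. FOXD1, a forkhead factor of kidney stroma, had no count in MDA-MB-231 against 75.3, 86 and 136 CPM in BT-549, and TBX3, a T-box factor of breast development, had 0 and 0.122 CPM against 45.7, 63 and 47 CPM. FOXQ1, another forkhead factor, had 51.2 and 59.1 CPM in MDA-MB-231 against 0, 0 and 0.0846 CPM.

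Growth factor signalling of the TGF-beta family also had its members on opposite sides, 15 higher and 16 lower of 50 (14 and 11 of the 44 in both lines). BMP7 had no count in MDA-MB-231 against 39.9, 36.6 and 31.4 CPM in BT-549, and ID2, a transcriptional target of BMP signalling, had 0.853 and 0.446 CPM against 117, 127 and 204 CPM. TGFB2 had 95.8 and 91 CPM against 1.31, 1.98 and 0.804 CPM, and INHBB, an activin subunit, 18.8 and 19.8 CPM against no count. Of 54 cancer-testis antigens, 13 were tested, and 5 were higher and 4 lower, while none of the 4 that both lines expressed was either. MAGEC1 stood at 17.1 and 16.5 CPM in MDA-MB-231 against no count in BT-549, and PRAME had no count against 16.5, 18.2 and 15.7 CPM. Semaphorins and plexins, guidance ligands and their receptors, were 17 higher and 2 lower of 27 (9 and 2 of the 19 in both lines), among them PLXND1 at 115 and 109 CPM against 2.96, 1.02 and 2.33 CPM. S100 genes were 8 higher and 1 lower of 12, and 3 higher and none lower of the 6 in both lines. S100A4 had 308 and 303 CPM against 3.71, 3.59 and 2.92 CPM, and S100A2 did not pass (edgeR adjusted p = 0.911), at 26.4 and 26.6 CPM against 26, 24.4 and 30.2 CPM.

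Glucose handling differed at its transporters. SLC2A1, the glucose transporter GLUT1, had 529 and 518 CPM in MDA-MB-231 against 22.2, 31.8 and 14.5 CPM in BT-549 (log2 fold change 4.52 ± 0.29, edgeR adjusted p = 1.86e-05). The lactate exporters were exchanged. SLC16A3 (MCT4) had 576 and 578 CPM against 11.2, 10 and 7.11 CPM, and SLC16A1 (MCT1) had 0.0355 and 0.162 CPM against 104, 115 and 101 CPM. The MDA-MB-231 siRNA libraries had SLC16A1 at 0.099 to 0.561 CPM, while NCI-H1395 and AGS had it at 22.4 CPM or more. LDHA, which makes lactate, was 3.47-fold higher, and LDHB differed 1.75-fold the other way over the pooled counts. VEGFA, a hypoxia target, was at 406 and 410 CPM against 38.4, 44.9 and 52.7 CPM. Of 36 hypoxia and glycolysis genes, 13 were higher and 4 lower, and of the 31 in both lines 9 were higher and 3 lower.

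Core machinery had few genes that met both criteria, although DNA replication genes were lower at least as often as all genes. Over all genes tested 21.2% were higher and 17.4% lower, and over those in both lines 13.4% and 12%. None of 28 mitosis genes was higher or lower by both criteria, with a median log2 fold change of 0.09, although 5 were called higher and 8 lower by adjusted p alone. PLK1, a mitotic kinase, was at 167 and 170 CPM in MDA-MB-231 and at 223, 224 and 165 CPM in BT-549. Of 33 DNA replication genes, none was higher and 6 were lower, including RRM2, a ribonucleotide reductase subunit, at 273 and 270 CPM against 746, 666 and 625 CPM. By adjusted p alone, 6 of the 33 were called higher and 13 lower. Of 77 cytosolic ribosomal protein genes, 1 was higher and 7 lower, and of 49 nuclear respiratory chain genes, none was higher and 4 were lower. By adjusted p alone, 17 ribosomal genes were called higher and 25 lower. Likewise 6 respiratory genes were called higher and 23 lower, with a median log2 fold change of -0.32 over the 49. Over all genes tested, 32.1% were called higher and 30.1% lower by adjusted p alone. The lower ribosomal genes included RPS6 on 9p and RPS20, at 185 and 196 CPM against 653, 625 and 675 CPM, on 8q.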

How the data were processed

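Libraries were made from bead-selected poly(A) RNA by random priming, per the labels' protocols. The submitters' processing notes name STAR 2.7.11a (aligner), fastp 0.23.4 (trimming) and the counter featureCounts 2.0.6, with hg38 as the build. No source used here states the strand setting, so overlapping and near-identical genes are uncertain. The authors deposited whole-number counts per gene; 3 broken lines of 1 gene were dropped, which left 62699 genes, and all 14 count columns matched a sample. Totals were 24447033 to 27828376 counts in the MDA-MB-231 libraries and 19204941 to 23378934 in BT-549.

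The counts of the 5 libraries were fitted in R 4.3.3 with edgeR 4.0.16 (filterByExpr by line, TMM, robust quasi-likelihood, cell line as the only term, 3 residual degrees of freedom), and p-values were adjusted over all 17476 genes. The ± values are standard errors, taken from each gene's F statistic. The control pair was read as a log2 ratio of CPM with a prior count of 2 and has no test. For a gene at 0 in a line the fitted fold change depends on the prior count, so a bound against 3 counts over that line is given; ratios otherwise pool the counts of a line. Bounds and counts near 0 cover counting error only. CPM of other libraries were put on the same scale by 1 constant. TPM used the exon lengths of the table. Chromosome arms were split at hand-entered, rounded hg38 centromere positions. The test was tried on simulated data with 200 genes changed. It recovered 58% of 2-fold and 94% of 4-fold changes and called 11 unchanged genes, so a gene that did not pass may still differ. To look for a library deposited more than once, counts were compared within each line: chi-square per degree of freedom was 3.42 between the PCDH control and NOP14 libraries and 17 to 46.6 between BT-549 libraries. These libraries also differ in treatment, so the comparison does not show that they are independent replicates.

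The members and the 56 gene lists were chosen with earlier results of these data known. Lists are described by counts and medians, without a test. Genes named were the 12 largest changes each way at an average log2 CPM of at least 4, the 3 smallest p in each list with its textbook members, and the 10 most abundant genes each way detected in 1 line; others were named after their values were seen, and some genes within the rule are not reported here. Alternatives were another scaling, filter, tool, group of libraries or set of terms, and each library left out in turn.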

Additional observations from a re-analysis of the deposited data

How the results depend on the processing

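For 182 genes named by rule, all called, the alternatives gave 2542 results. Of these, 2519 were on the same side, 17 no longer passed and 6 changed sign. None of the 910 results that left out a library was lost. The 182 were picked for large changes, small p-values or detection in 1 line in the same libraries. Their survival therefore says little about other genes. The signs that changed came with the MDA-MB-231 siRNA libraries in place of the vector libraries, without and with the replicate block: CDKN2D (-0.84 and -0.84), MT-ND2 (-0.18 and -0.17) and H2AC6 (0.73 and 0.74); the cause was not tested. Genes called numbered 10871. They were 4801 (2901 higher, 1900 lower) for the control pair in a fit of all 14 libraries and 4527 (2542 higher, 1985 lower) with terms for ADAR siRNA and NOP14, which leave 1 residual degree of freedom and 4328 genes that also held in the control libraries. Leaving out 1 library gave 7239 (without the PCDH control) to 11981 genes called, 4042 to 6315 higher and 3145 to 5666 lower. Genes detected in 1 line alone were 207 at 5 CPM and 72 at 20 CPM for MDA-MB-231, and 37 at 20 CPM for BT-549. The arm 9p median moved to -1.15 with the siRNA libraries. The siRNA libraries of the 2 lines that share a label did not deviate together (correlations of deviations 0.008, -0.121 and -0.024 over 9429 genes). Libraries with unlike labels gave -0.094 to 0.134. Line and treatment responses mix in these deviations, so they cannot show whether libraries were handled together. The replicate block gave 11031 genes called. Depth limits statements on genes at 0 to the bounds given.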
